A study of Mus musculus with 230 samples.

Results

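The comparison described here is cocaine re-exposure against saline in the basolateral amygdala of mice with a history of cocaine self-administration. Its members are the 11 basolateral amygdala libraries, of 230 in the series, whose labels give cocaine self-administration and an injection at 30 d of withdrawal. In 6 libraries, called CC, the injection was cocaine, and in 5 libraries, called CS, it was saline. The tissue was collected 1 h after the injection. All mice were male C57BL/6J. Mice of both groups had self-administered cocaine and received a single intraperitoneal injection, so the comparison holds the drug history and the injection constant and varies what was injected. The other basolateral amygdala groups came from saline self-administration followed by cocaine (SC, 7 libraries) or saline (SS, 7 libraries) at 30 d, and from 24 h of withdrawal with no injection after cocaine (C24, 6 libraries) or saline (S24, 7 libraries). Libraries are named by their titles, such as BLA-115, whose number was taken as the mouse. The labels do not say whether tissue of several mice was pooled, so the library is the unit of the tests. In the main fit within this tissue, a p-value sets the difference between groups against the spread between libraries of a group. That spread was estimated over all 38 basolateral amygdala libraries.

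The basolateral amygdala is a cortex-like part of the amygdala, made largely of glutamatergic projection neurons with a minority of GABA interneurons, and is known for linking cues and contexts to reward and threat. Drug-paired cues are thought to reach the nucleus accumbens and prefrontal cortex partly through it. Immediate early genes are transcribed within minutes of neuronal activity without new protein synthesis. Fos, Fosb and Junb encode subunits of the AP-1 transcription factor, Egr1 and Egr2 zinc finger transcription factors, Npas4 an activity-dependent transcription factor, and Arc a regulator of AMPA receptor trafficking.

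Total counts of the 11 libraries ran from 16242314 to 24084390. The CC library BLA-115 stood apart: it had the lowest total, 20500 genes detected against 21779 to 22200 in the other CC libraries, and a median correlation with its group of 0.952, where the other 24 libraries from 30 d had 0.979 to 0.991. In that library 1805 of 14575 genes lay more than 1 log2 unit from the other CC libraries, against 16 to 473 genes in the others. Its deviation was related to exon length across genes (Spearman's rho -0.51). In the others rho ran from -0.26 (SS library BLA-011) to 0.44 (CC library BLA-031). The deviations of the other CC libraries were taken against means that include BLA-115. The counts of genes, the list medians and the fold changes between CC and CS within this tissue are therefore given with and without it, unless it is said that the value is for all 11 libraries. The markers of the labelled tissue were present in all 11 libraries. Slc17a7, the vesicular glutamate transporter of cortical-type neurons, ran from 372 to 1126 CPM (counts scaled to a common library size), and Rspo2, a marker of basolateral amygdala projection neurons, from 18.9 to 36.8 CPM. Drd2, a dopamine receptor abundant in the adjoining striatum, ran from 5.64 to 80.9 CPM within the 11 libraries.

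No gene passed the test between CC and CS. With edgeR's quasi-likelihood test, 0 of 17024 genes (0.0%) had an adjusted p under 0.05, and the smallest adjusted p was 0.914. At an unadjusted p under 0.05 there were 746 genes (4.38%), of which 387 (2.27%) were higher and 359 (2.11%) lower in CC. DESeq2 called 0 genes with 788 at an unadjusted p under 0.05, and limma voom called 0 with 643. Without BLA-115, edgeR called 0 of 17007 genes (0.0%) and 622 (3.66%) had an unadjusted p under 0.05. The values that follow are therefore levels and estimates for genes that did not pass, and the lists are described by their counts and medians beside those of all genes. Over all 17024 genes the median log2 fold change was 0.01, and 53.04% of genes were above 0. Without BLA-115 the median was 0.00 and 50.70% were above 0.

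Of the 40 immediate early genes, all tested, 38 had a higher estimate in CC and 2 (Egr3 and Trib1) a lower one, with a median log2 fold change of 0.17. At an unadjusted p under 0.05 stood 3 of them, Ccn1, Junb and Btg2, and 0 of them had an adjusted p under 0.05 in edgeR. Of all 17024 genes, 53.04% had a higher estimate and 387 (2.27%) were higher at that threshold. The summed level of the list overlapped between the groups, at 1680 to 2164 CPM in CC and 1579 to 2023 CPM in CS. The genes were read from the same 11 libraries, so they are not separate observations. Without BLA-115, 34 of the 40 were higher, the median was 0.12 and 2 (Ccn1 and Egr2) had an unadjusted p under 0.05. Of all genes, 50.70% were higher without it, and 216 of 17007 were higher at that threshold. The lowest median of the alternatives was 0.09, from limma voom without BLA-115.

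Fos was at 40.4, 37.1, 64.5, 59.9, 44.3 and 49.1 CPM in CC libraries BLA-012, BLA-031, BLA-074, BLA-085, BLA-115 and BLA-145, and at 32.4, 40.3, 52.2, 34.0 and 32.1 CPM in CS libraries BLA-014, BLA-072, BLA-091, BLA-111 and BLA-151. The groups overlapped, with the highest CS library (BLA-091) above 4 of the 6 CC libraries. The mean was 49.2 ± 10.9 CPM (SD, n = 6) in CC and 38.2 ± 8.49 CPM (SD, n = 5) in CS. Its log2 fold change was 0.37 (95% interval -0.04 to 0.77, edgeR unadjusted p = 0.077, adjusted p = 0.914), and 0.39 without BLA-115. Fosb had a log2 fold change of 0.20 (interval -0.10 to 0.49) and of 0.28 without BLA-115, and the CC library BLA-115, at 23.1 CPM, was the lowest of the 11 libraries.

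Junb was at 68.1, 59.7, 89.6, 81.9, 95.8 and 82.98 CPM in the CC libraries, in the same order, and at 60.4, 63.9, 76.7, 55.1 and 54.5 CPM in the CS libraries. In 4 CC libraries Junb was above every CS library, and the CC library BLA-031 was below 3 CS libraries. The log2 fold change was 0.36 (interval 0.01 to 0.71, unadjusted p = 0.0439, adjusted p = 0.914 in edgeR), and 0.30 (unadjusted p = 0.104) without BLA-115. Exons of Junb overlap those of Prdx2, and the strand setting of the counting is not given in the sources used here. Btg2, an antiproliferative cofactor, had 29.5 ± 5.59 CPM in CC (SD, n = 6) and 21.9 ± 4.44 CPM in CS (SD, n = 5), a log2 fold change of 0.43, and of 0.39 without BLA-115.

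Npas4 was at 38.3, 36.1, 36.02, 45.8, 29.5 and 44.4 CPM in the CC libraries and at 32.5, 32.5, 31.3, 30.7 and 28.3 CPM in the CS libraries. The 5 CC libraries other than BLA-115 lay above every CS library, and BLA-115 lay within the CS range. It had a log2 fold change of 0.31 (interval -0.11 to 0.72, unadjusted p = 0.14 in edgeR) and 0.37 (unadjusted p = 0.0887) without BLA-115. Nr4a3, an orphan nuclear receptor induced by activity, was singled out after its values were seen, because it was the only immediate early gene of the list with all 6 CC libraries above all 5 CS libraries. It was at 104, 92.6, 99.6, 88.0, 88.4 and 141 CPM in CC and at 81.8, 80.4, 84.6, 78.3 and 82.6 CPM in CS. The estimated log2 fold change was 0.33 ± 0.18 (SE, unadjusted p = 0.0756 in edgeR), 0.37 without BLA-115 and 0.21 without the CC library BLA-145. Over all 17024 genes, 15 (0.0881%) had every CC library above every CS library and 19 (0.112%) had every one below; without BLA-115 these were 44 (0.258%) and 49 (0.288%).

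Egr2 was at 15.4, 9.84, 16.1, 16.8, 10.6 and 13.1 CPM in CC and at 13.0, 11.1, 7.87 and 5.93 CPM in CS libraries BLA-072, BLA-091, BLA-151 and BLA-111, with BLA-014 just below BLA-091. The groups overlapped, and the lowest levels of all were in BLA-111 and BLA-151. Its log2 fold change was 0.48 (interval -0.01 to 0.98, unadjusted p = 0.056 in edgeR) and 0.54 (unadjusted p = 0.0394) without BLA-115. Arc, Egr1, Nr4a1 and Dusp1, the last a phosphatase that inactivates MAP kinases, had log2 fold changes of 0.12, 0.10, 0.11 and 0.22, each with an interval that included 0, and of 0.19, 0.08, 0.08 and 0.18 without BLA-115. For Egr1 the interval ran from -0.19 to 0.39. Bdnf, the neurotrophin, had 28.2 ± 5.64 CPM in CC (SD, n = 6) and 22.2 ± 8.31 CPM in CS (SD, n = 5). A log2 fold change of 0.35 had an interval from -0.27 to 0.96 and was 0.34 without BLA-115 and 0.20 without the CS library BLA-014, and the lowest CC library (BLA-031, 17.5 CPM) lay inside the CS range.

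**Figure D1:**
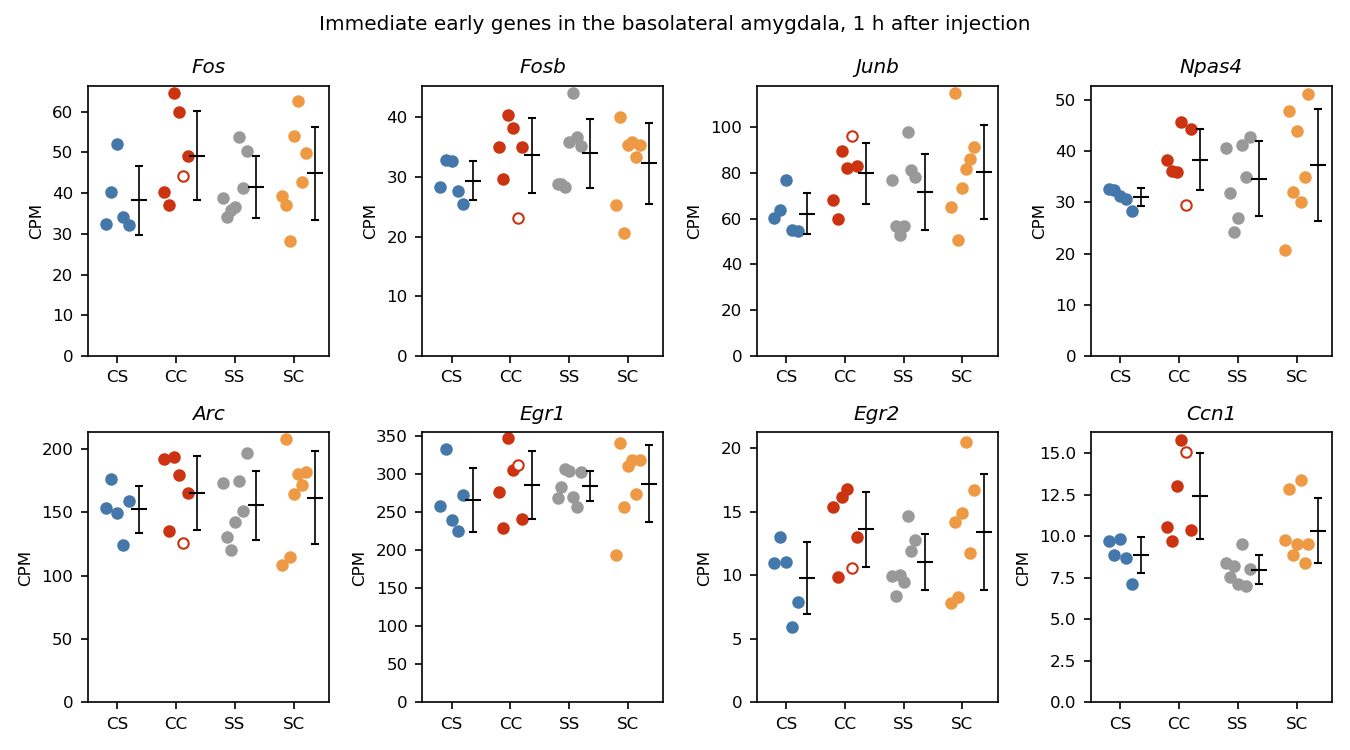
Level of 8 immediate early genes (vertical axis, CPM from 0) in each basolateral amygdala library of the CS, CC, SS and SC groups; each point is a library, the open point is the CC library BLA-115, and the bar is the mean with its SD. The groups overlap in every panel, and the 5 filled CC points of Npas4 lie above the CS points.

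The levels of these genes were lower in the libraries taken 24 h into withdrawal, with no injection. Fos had a mean of 17.1 CPM in C24 and 14.2 CPM in S24, against 41.5 CPM in SS and 44.9 CPM in SC. Arc had 73.3 CPM in C24 and 73.2 CPM in S24, against 152 CPM in CS and 165 CPM in CC. The CS libraries, the reference for the CC values, thus had levels of Fos and Arc above those of both groups without an injection. Withdrawal time and the injection differ together between those groups, so their parts cannot be told apart. Other levels differed between them as well. Striatal and central amygdala neuron markers had median summed levels of 1420 CPM in C24 and 1110 CPM in S24. In CC and CS these were 2792 and 3495 CPM, with overlapping ranges. For heat shock and protein folding genes the medians were 5107 CPM in C24, 4810 CPM in S24, 6750 CPM in CC and 7361 CPM in CS. The part of such differences in the Fos and Arc levels was not tested.

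Among genes with a mean of at least 1 CPM, those of smallest unadjusted p included Pyroxd2, Gm26592, Lgi3, Ccn1, Sspo, Nlrp3, Tmem114, Cerk and Hr. The estimates of Ccn1 and Tmem114 were higher in CC and those of the other 7 lower. Each had an adjusted p of 0.914 in edgeR. These 9 were picked for their p, so their estimates are given as a description.

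Ccn1, a secreted matricellular protein and immediate early gene (chr3:145646976-145649981, minus strand, mm10), was at 10.6, 9.69, 13.1, 15.8, 15.1 and 10.4 CPM in CC and at 9.73, 8.86, 9.85, 8.71 and 7.14 CPM in CS. Of the CC libraries, 5 lay above every CS library, and BLA-031 lay below the highest pair of CS libraries. The log2 fold change was 0.49 ± 0.14 (SE, unadjusted p = 0.00154 in edgeR) and 0.43 without BLA-115. Tmem114, a transmembrane protein gene, had 1.17 ± 0.479 CPM in CC (SD, n = 6) and 0.708 ± 0.130 CPM in CS (SD, n = 5), with a log2 fold change of 0.71 that was 0.52 without BLA-115, its highest library.

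Pyroxd2, a mitochondrial oxidoreductase gene (chr19:42725858-42752775, minus strand, mm10), was at 1.41, 1.15, 1.25, 1.18, 1.22 and 1.54 CPM in CC and at 2.19, 1.80, 2.43, 1.47 and 1.93 CPM in CS. A single CC library (BLA-145) reached above the lowest CS library (BLA-111). The estimate was a log2 fold change of -0.60 ± 0.17 (SE, unadjusted p = 0.00096 in edgeR), and -0.58 without BLA-115.

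Gm26592, an antisense transcript (chr9:21034290-21037782, minus strand, mm10), was at 0.970, 1.58, 2.05, 2.31, 1.16 and 2.40 CPM in CC and at 2.42, 2.47, 2.75, 3.66 and 2.80 CPM in CS. Every CC library lay below every CS library, the highest CC and the lowest CS library by a narrow margin. Its exons overlap those of Icam5, and reads of the 2 genes cannot be told apart without the strand. The log2 fold change was -0.68 ± 0.19 (SE) and -0.60 without BLA-115.

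Lgi3, a secreted leucine-rich repeat protein (chr14:70530685-70538324, plus strand, mm10), was at 56.0, 64.4, 82.0, 70.2, 79.7 and 61.5 CPM in CC and at 79.8, 94.2, 73.5, 82.6 and 120 CPM in CS. The CC libraries BLA-074 and BLA-115 lay within the CS range and the other 4 lay below it. Its log2 fold change was -0.39 ± 0.11 (SE), and -0.43 without BLA-115. Nlrp3, the inflammasome sensor, had 0.711 ± 0.216 CPM in CC (SD, n = 6) and 1.29 ± 0.318 CPM in CS (SD, n = 5), with a log2 fold change of -0.87. Without BLA-115, at 1.09 CPM the highest CC library, all CC libraries lay below the CS libraries and the log2 fold change was -1.01. Sspo, which encodes the secreted glycoprotein SCO-spondin, had 3.78 ± 1.48 CPM in CC (SD, n = 6) and 6.24 ± 1.18 CPM in CS (SD, n = 5), with a log2 fold change of -0.71, and of -0.59 without BLA-115.

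Cerk, ceramide kinase, had 60.2 ± 5.36 CPM in CC (SD, n = 6) and 77.5 ± 21.7 CPM in CS (SD, n = 5). Hr, a nuclear receptor corepressor, had 10.9 ± 1.33 CPM in CC (SD, n = 6) and 15.6 ± 6.53 CPM in CS (SD, n = 5). The log2 fold changes of Cerk and Hr were -0.37 and -0.51, and -0.36 and -0.50 without BLA-115. Without the CS library BLA-151 they were -0.20 (unadjusted p = 0.0542 in edgeR) and -0.22 (unadjusted p = 0.113). For Cerk, Hr and Lgi3 the highest CS value was in BLA-151, at 110.9, 27.0 and 120 CPM. Gypc, a red cell membrane glycoprotein gene also expressed elsewhere, had a mean under 1 CPM and was chosen after its values were seen. Its CC libraries, at 0.669 to 1.35 CPM, all lay above its CS libraries, at 0.327 to 0.585 CPM, with a log2 fold change of 1.06 ± 0.24 (SE, unadjusted p = 0.00011, adjusted p = 0.914 in edgeR), and of 0.94 without BLA-115.

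**Figure D2:**
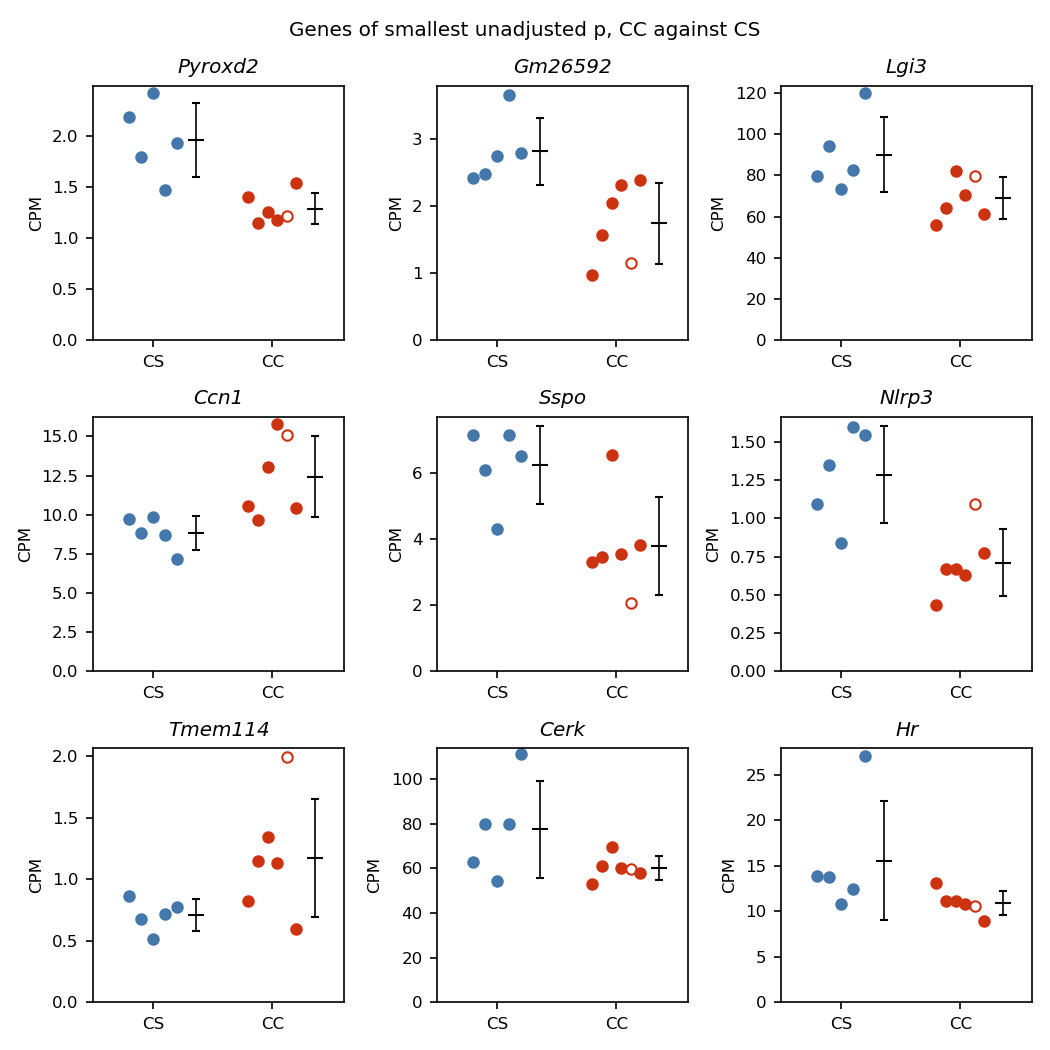
Level of 9 genes of smallest unadjusted p (vertical axis, CPM from 0) in each CS and CC library; each point is a library, the open point is the CC library BLA-115, and the bar is the mean with its SD. The ranges of the groups are separate for Gm26592, and the highest CS point of Lgi3, Cerk and Hr is BLA-151.

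Glucocorticoid-responsive genes, which respond to corticosterone through its nuclear receptors, had a median log2 fold change of -0.11, with 7 of 21 higher in CC. Without BLA-115, 1 of 21 was higher and the median was -0.19. Sgk1, a kinase of this list, was at 110.8 to 222.8 CPM in CC and 99.4 to 274 CPM in CS, with a log2 fold change of -0.30 (interval -0.74 to 0.15) of -0.44 without BLA-115 and of -0.12 without BLA-151. Fkbp5, a co-chaperone of the glucocorticoid receptor, had 70.2 ± 10.6 CPM in CC (SD, n = 6) and 71.0 ± 9.55 CPM in CS (SD, n = 5), with log2 fold changes of -0.02 and, without BLA-115, -0.10. Per1, also a clock gene, had a log2 fold change of -0.12; BLA-115 was at 70.3 CPM and the other CC libraries at 128 to 136 CPM, and without it the value was -0.01.

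Of the 16 circadian clock genes, 3 were higher, with a median of -0.07 (3 and -0.06 without BLA-115). Per2, a repressor of the clock loop, had 79.9 ± 6.89 CPM in CC (SD, n = 6) and 98.9 ± 17.1 CPM in CS (SD, n = 5), with a log2 fold change of -0.31 (unadjusted p = 0.00868 in edgeR) and of -0.27 without BLA-115.

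In CC against CS of this tissue, the heat shock and protein folding genes, chaperones of unfolded proteins, depended on BLA-115. With it, 13 of 27 were higher and the median log2 fold change was -0.00. Without it, 1 of 27 was higher, the median was -0.24 and 13 had an unadjusted p under 0.05, all of them lower in CC. Of all 17007 genes tested without BLA-115, 406 were lower at that threshold. The members were read from the same libraries, so the 13 are not separate observations. The summed level was 10500 CPM in BLA-115, 5874 to 6993 CPM in the other CC libraries and 5935 to 7842 CPM in CS. Hspa1b, an inducible Hsp70, was at 3.73, 6.40, 12.9, 10.8, 48.4 and 8.60 CPM in CC and at 7.77, 22.0, 13.0, 32.7 and 45.6 CPM in CS. BLA-115 was the highest of the 11 libraries. Of the CS libraries, BLA-014 lay within the range of the other CC libraries and the other 4 lay above it. The log2 fold change was -0.70 (unadjusted p = 0.122 in edgeR) with BLA-115 and -1.51 (unadjusted p = 0.000286) without it, and -0.35 without the CS library BLA-151. Of the 50-base stretches of Hspa1b, 62.3% also occur in other genes, so its level is uncertain. Hspb1, a small heat shock protein, had log2 fold changes of -0.01 with BLA-115 and -0.98 without it. Hspb1 shares 48.8% of its 50-base stretches with other genes. The list was mostly lower in other comparisons too. In SC against SS 3 of 27 were higher, with a median of -0.11. For CC against CS in limma, 9 were higher in the basolateral amygdala with all 11 libraries (median -0.06). There were 2 higher in the dorsal striatum (-0.14), 0 in the nucleus accumbens (-0.17) and 1 in the prefrontal cortex (-0.16). In the ventral hippocampus 3 were higher (-0.14), and in the ventral tegmental area 6 (-0.05).

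The oxidative phosphorylation subunits, parts of the mitochondrial respiratory chain, showed the same dependence on BLA-115. With BLA-115, 37 of 38 were higher and the median was 0.14. Without it, 8 of 38 were higher and the median was -0.05. Their summed level was 9701 CPM in BLA-115, 5542 to 6070 CPM in the other CC libraries and 5581 to 6439 CPM in CS. Interferon-responsive genes had a median of -0.02 with 12 of 24 higher, and of -0.20 with 4 of 24 higher without BLA-115.

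**Figure D3:**
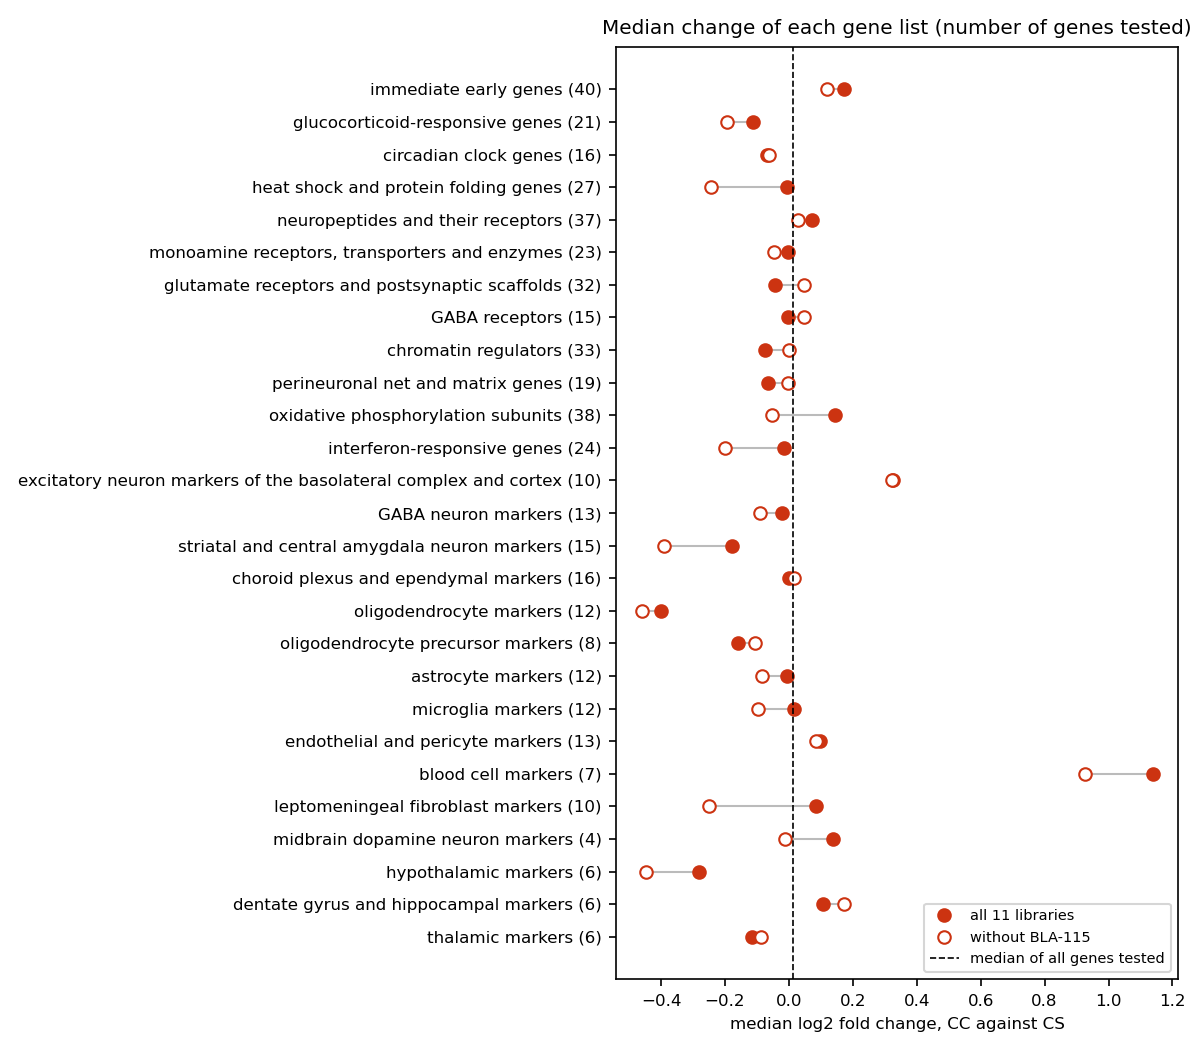
Median log2 fold change of CC against CS (horizontal axis) of each of the 27 gene lists, with the number of genes tested in brackets; filled points use all 11 libraries, open points leave out the CC library BLA-115, and the dashed line is the median of all genes. The filled and open points of the leptomeningeal, heat shock, striatal, blood cell and oxidative phosphorylation lists are farthest apart, while immediate early genes stay above the line and oligodendrocyte markers below it.

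The receptor and peptide lists lay near the median of all genes. Of 37 neuropeptides and their receptors 21 were higher, with a median of 0.07 (20 and 0.03 without BLA-115). Crh, corticotropin-releasing hormone, was at 3.97 to 30.3 CPM in CC and 3.73 to 16.2 CPM in CS, with a log2 fold change of 0.37 that was 0.01 without BLA-115. Its receptor Crhr1 had 18.5 ± 3.68 CPM in CC (SD, n = 6) and 24.3 ± 6.50 CPM in CS (SD, n = 5), with a log2 fold change of -0.39, of -0.35 without BLA-115 and of -0.22 without the CS library BLA-091. Of 26 monoamine receptors, transporters and enzymes 23 passed the filter on low counts and 11 were higher, with a median of -0.00 (10 and -0.05 without BLA-115); Drd4, Slc6a2 and Slc6a4 did not pass it. Drd1, the D1 dopamine receptor, was at 23.2 to 96.7 CPM in CC and at up to 128 CPM in CS, where the lowest library lay just below the CC range. Its log2 fold change was -0.31 (interval -1.19 to 0.56), -0.44 without BLA-115 and -0.06 without BLA-151.

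Glutamate receptors and postsynaptic scaffolds had 11 of 32 higher with a median of -0.04, and 19 of 32 higher with a median of 0.05 without BLA-115. GABA receptors had 7 of 15 higher with a median of -0.00, and 9 with a median of 0.05 without BLA-115. Chromatin regulators had 8 of 33 higher with a median of -0.08, and 17 of 33 higher with a median of 0.00 without BLA-115; Hdac3, a histone deacetylase, had a log2 fold change of 0.17 (unadjusted p = 0.0289 in edgeR), and of 0.11 (unadjusted p = 0.12) without BLA-115. Perineuronal net and matrix genes had 7 of 19 higher with a median of -0.07, and 9 with a median of -0.00 without BLA-115. Acan, the net proteoglycan aggrecan, was at 3.92 to 4.95 CPM in CC and 4.43 to 8.45 CPM in CS, and its log2 fold change was -0.39 ± 0.18 (SE), -0.37 without BLA-115 and -0.21 without BLA-151.

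All 12 oligodendrocyte markers had a lower estimate in CC, with a median log2 fold change of -0.40. An unadjusted p under 0.05 was reached by 3 of them (Cnp, Mag and Mal), and by 6 without BLA-115, where all 12 were again lower and the median was -0.46. Of all genes, 359 (2.11%) were lower at that threshold, and 406 of 17007 without BLA-115. None of the 12 markers had an adjusted p under 0.05 in edgeR. Mbp, a major myelin protein, was at 1573, 1563, 1897, 1519, 2116 and 1483 CPM in CC and at 2202, 2016, 1213, 2264 and 3487 CPM in CS. The groups overlapped, since the CS library BLA-091 was the lowest and the CS library BLA-151 the highest of the 11 libraries. Its log2 fold change was -0.40 ± 0.20 (SE), -0.48 without BLA-115 and -0.19 without BLA-151. The summed level of the list ran from 3729 to 5344 CPM in CC and from 2947 to 8738 CPM in CS. Without the CS library BLA-151 the median was -0.20, and without the CS library BLA-091 it was -0.56. In bulk tissue, fewer cells of a type and less RNA per cell cannot be told apart.

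Markers of excitatory neurons of the basolateral complex and cortex had 9 of 10 higher in CC with a median of 0.33, and 0.32 without BLA-115. Rspo2 was at 35.2, 28.5, 36.8, 28.7, 18.9 and 33.7 CPM in CC and at 23.6, 25.7, 19.3, 23.8 and 23.5 CPM in CS. BLA-115 was the lowest of all, and the other 5 CC libraries lay above every CS library. The list rested on the CC library BLA-145: without it the median was 0.01 and 5 of 10 were higher. Markers of striatal and central amygdala neurons had 3 of 15 higher with a median of -0.18 (2 and -0.39 without BLA-115). The direction of that median turned without the CS library BLA-151 (0.09, 9 of 15 higher) and was 0.00 without the CC library BLA-145. Their summed level ran from 1130 to 4653 CPM in CC and from 781 to 4422 CPM in CS. These sums varied more among libraries of a group than between the groups, and their part in the values of the immediate early genes was not tested.

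Blood cell markers had a median of 1.14, with 6 of 7 tested higher and 4 at an unadjusted p under 0.05, and of 0.93 with 5 of 7 higher without BLA-115. Of all genes, 387 (2.27%) were higher at that threshold with all 11 libraries. Hbb-bs, a beta-globin, was at 266 CPM in the CC library BLA-012 and 115.2 CPM in BLA-115, and at 15.8 to 22.9 CPM in the other 4 CC libraries, against 14.6 to 54.8 CPM in CS. The high values were thus in 2 CC libraries, and limma with sample quality weights gave a median of -0.36. Of the 50-base stretches of Hbb-bs, 53.2% also occur in other genes. Astrocyte, microglia, GABA neuron and choroid plexus lists had medians between -0.02 and 0.02, and between -0.10 and 0.01 without BLA-115.

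**Figure D4:**
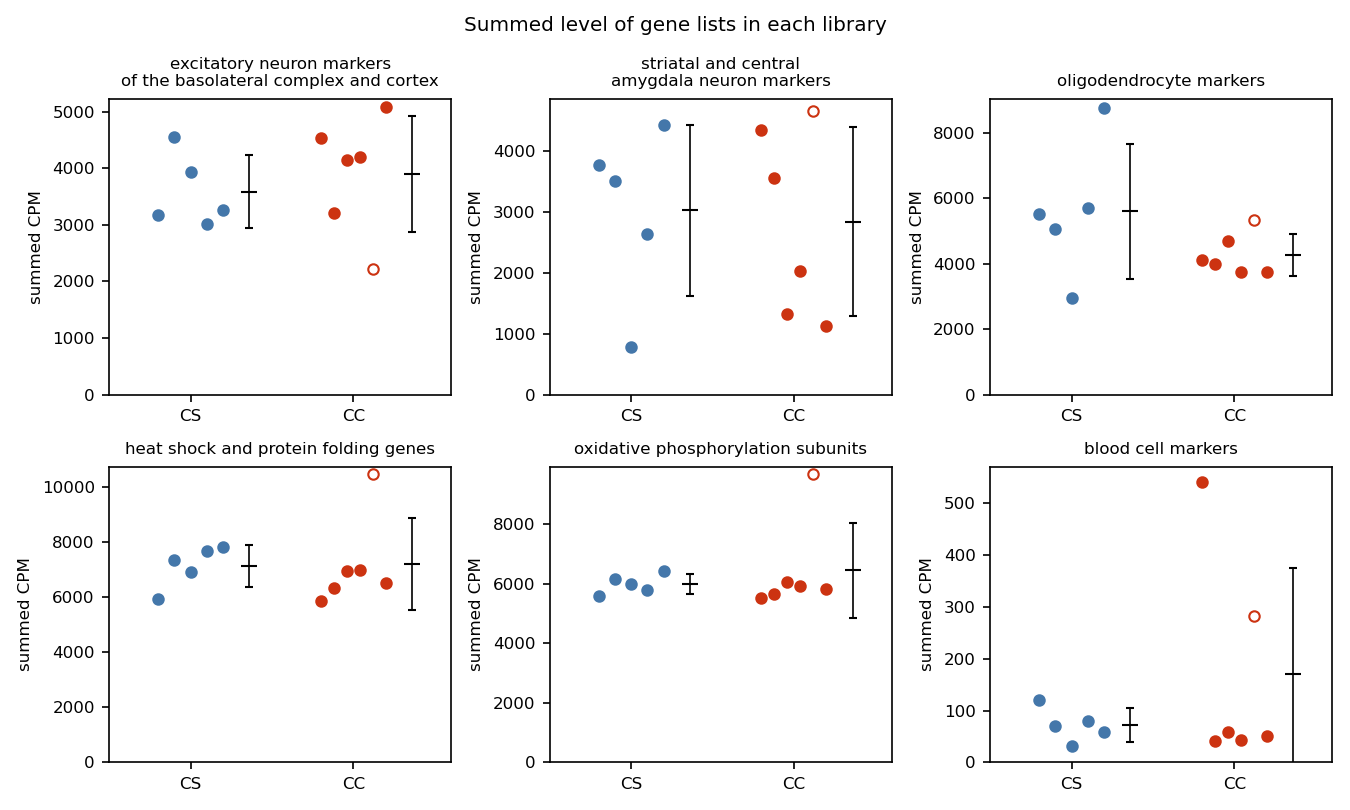
Summed level of 6 gene lists (vertical axis, CPM from 0) in each CS and CC library; each point is a library, the open point is the CC library BLA-115, and the bar is the mean with its SD, of which the lower end for blood cell markers in CC runs below the axis. BLA-115 is the highest point for the heat shock and oxidative phosphorylation lists, and the CS library BLA-151 for oligodendrocyte markers.

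The interaction asked whether the effect of cocaine after a cocaine history (CC against CS) differed from that after a saline history (SC against SS). With edgeR 0 of 17024 genes (0.0%) had an adjusted p under 0.05 (smallest 0.988) and 578 (3.4%) had an unadjusted p under 0.05, or 1150 without BLA-115, again with 0 called. The gene values for the interaction and the regions are for all 11 libraries. DESeq2 called 1 gene, the processed pseudogene Gm11410, with a log2 difference of -5.46 and an adjusted p of 0.0393. Without BLA-115 DESeq2 called 0 genes (smallest adjusted p 0.0686). Gm11410 was at 0.0576 to 0.450 CPM in all 11 CC and CS libraries, and at 0.150, 0.527 and 31.2 CPM (lowest, median and highest) in SC. The difference thus came from SC against SS (log2 fold change 5.30 in edgeR). The SC median lay close to the CC and CS range and far below the highest SC library, so the difference was not shared by all SC libraries. Immediate early genes had a median of 0.10 in SC against SS with 29 of 40 higher, and a median difference of 0.12 between the 2 effects. Fos had a log2 fold change of 0.11 in SC against SS, and a difference of 0.25 ± 0.27 (SE). For Nr4a3 the difference was 0.59 (unadjusted p = 0.019): its mean was 102 CPM in CC, 81.5 CPM in CS, 80.7 CPM in SC and 96.5 CPM in SS.

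Lgi3 had the second smallest p of the interaction, with a log2 difference of -0.55 ± 0.15 (SE, unadjusted p = 0.000797, adjusted p = 0.988 in edgeR). Its mean was 69.0 CPM in CC, 90.0 CPM in CS, 82.8 CPM in SC and 74.01 CPM in SS. H2-T10, a class I histocompatibility gene annotated as a polymorphic pseudogene, had the smallest p. It was at 0.672 to 0.963 CPM in CC and 1.08 to 1.64 CPM in CS. It shares 32.9% of its 50-base stretches with other genes, and its exons overlap those of BC023719. Oligodendrocyte markers had a median of 0.03 in SC against SS and a median difference of -0.41 between the effects. None of the 12 had an unadjusted p under 0.05 for that difference.

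The CC against CS effect was also compared with its mean in the other 5 regions, the dorsal striatum (CPu), nucleus accumbens (NAc), prefrontal cortex (PFC), ventral hippocampus (vHipp) and ventral tegmental area (VTA), which held 56 CC and CS libraries. With limma, 0 of 18927 genes (0.0%) had an adjusted p under 0.05 for the difference (smallest 0.910), and 959 (5.07%) had an unadjusted p under 0.05, or 405 without BLA-115. The smallest p belonged to Dnaaf2, a dynein assembly factor that shares 37.9% of its 50-base stretches with other genes. Its log2 fold change was 0.35 ± 0.12 (SE) in the basolateral amygdala and between -0.24 and -0.02 in the other regions, and the CC library BLA-115 held its highest value, 9.38 CPM against 4.07 to 6.16 CPM in the other CC libraries. Slc22a23, a solute carrier gene, was picked as 1 of the 5 genes of smallest p for this difference (unadjusted p = 0.000739, adjusted p = 0.910 in limma). Its log2 fold change was -0.32 ± 0.09 (SE) in the basolateral amygdala and between -0.13 and 0.06 elsewhere, with BLA-115 at 50.7 CPM, the lowest of the 11 libraries.

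Npas4 was 0.30 ± 0.23 (SE) on the log2 scale in the basolateral amygdala and between -0.45 and -0.05 in the other regions, a difference of 0.52 ± 0.26 (SE, unadjusted p = 0.0518, adjusted p = 0.910 in limma). Junb was 0.36 ± 0.19 (SE) in the basolateral amygdala and 0.36 ± 0.17 (SE) in the CPu, and Egr2 was 0.53 ± 0.29 (SE) and 0.45 ± 0.19 (SE) in the same regions. Ccn1 was 0.47 ± 0.20 (SE) in the basolateral amygdala and 0.78 ± 0.20 (SE) in the vHipp. The median over the 40 immediate early genes was 0.16 in the basolateral amygdala, 0.14 in the CPu, 0.09 in the PFC, 0.03 in the VTA, -0.01 in the vHipp and -0.11 in the NAc. None of the 40 had an unadjusted p under 0.05 for the difference between regions. Oligodendrocyte markers had a median of -0.34 in the basolateral amygdala, -0.61 in the vHipp and between -0.03 and 0.05 in the other regions.

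**Figure D5:**
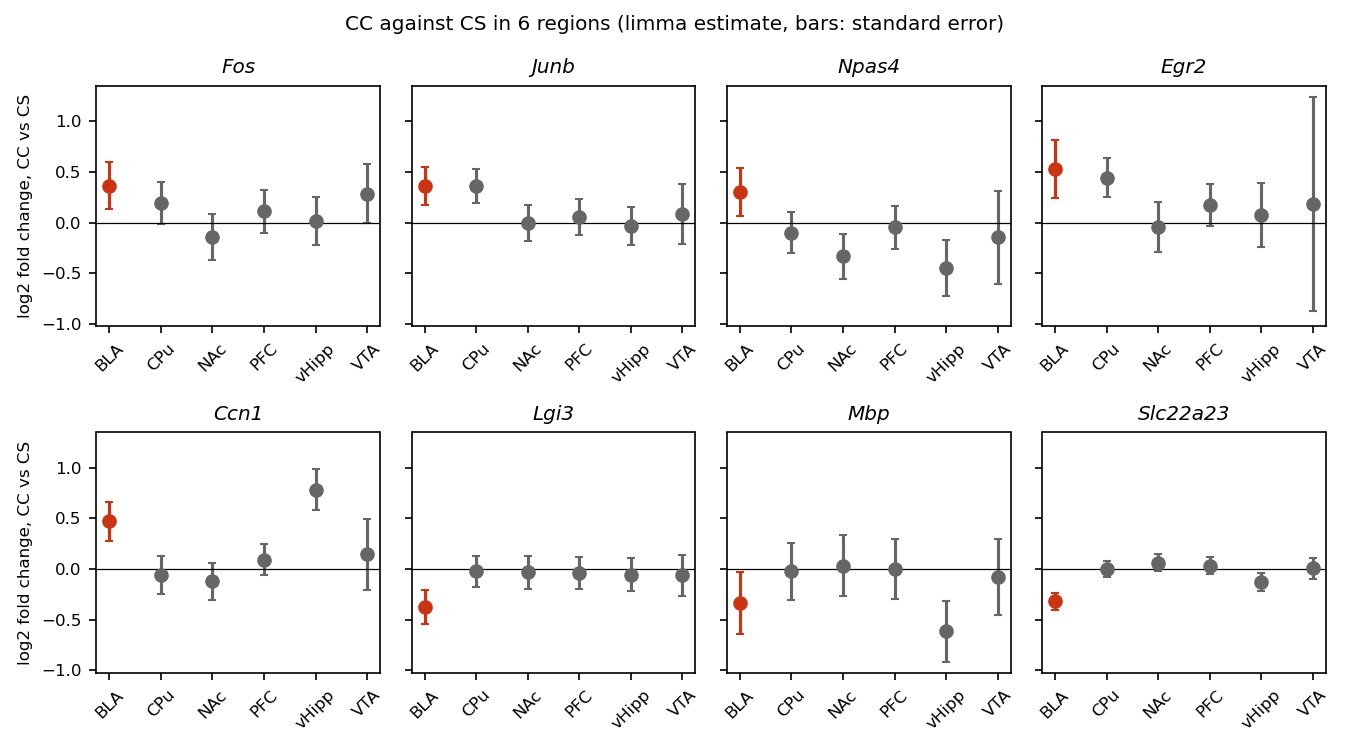
Log2 fold change of CC against CS (vertical axis) of 8 genes in each of 6 regions (horizontal axis), as limma estimates with bars for the standard error; the basolateral amygdala (BLA) is in red. Junb and Egr2 have similar estimates in the BLA and CPu, Ccn1 is highest in the vHipp, and Lgi3 and Slc22a23 are below 0 in the BLA and near 0 elsewhere. Slc22a23 was picked for its small p for the difference between regions, and Lgi3 for its small p in the BLA. The adjusted p of that difference was 0.910 in limma for both.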

How the data were processed

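The authors deposited 1 table of unnormalised read counts, with Ensembl mouse genes in rows; the submitters' processing notes name HTSeq, limma and the build mm10. Libraries were made after ribosomal RNA depletion, per the labels' protocols, although the molecule field reads polyA RNA. The aligner, annotation release and strand setting are not given in the sources used here. Of 43346 gene identifiers, 42462 (98.0%) were named from GENCODE M21, and mitochondrial genes had no counts.

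All 38 basolateral amygdala libraries, of 11866570 to 30246933 counts, were fitted in 6 groups with edgeR 4.0.16 in R 4.3.3 (filterByExpr with minimum count 10 and minimum total 15, TMM, robust quasi-likelihood F test, Benjamini-Hochberg adjustment over all genes, threshold 0.05). CPM use the TMM factors. For edgeR the SE is an approximation, the absolute log2 fold change divided by the square root of the F statistic. The 95% intervals are t intervals from that SE. Regions were compared with limma 3.58.1 on voom weights over 230 libraries, with the mouse as a block through duplicateCorrelation. The block came from title numbers. As a check, deviations of log CPM from the mean of the library's group were correlated between regions. Each CC or CS library of the basolateral amygdala was paired with libraries of its condition in other regions. The median correlation was 0.084 over 47 same-numbered pairs, with 20 pairs over 0.1. It was -0.009 over 264 other pairs, with 47 over 0.1. DESeq2 1.42.0 was an alternative. The scripts were tested on simulated data.

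Named genes were the 10 of smallest p with a mean of at least 1 CPM, fixed activity and stress genes, up to 3 of smallest p in each list, up to 5 of the interaction and regional difference, and tissue markers; some genes that the rule chose are not reported here. The members, the 27 lists and the tests were chosen with earlier results of these data known.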

Additional observations from a re-analysis of the deposited data

Results flagged for a closer look

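Gene levels, list sums, total counts and genes detected were examined in the 6 CC and the 5 CS libraries, in 222 tests. Dixon's criterion for a library far from the others is met by chance in about 1 of 20 independent tests. These tests shared the same 11 libraries, some genes belonged to the summed lists and many were picked by p, so that rate does not apply. The criterion was met in 29 tests, and 20 of the 29 were in the CC library BLA-115. In that library the level was high for Arrdc2 (32.5 CPM), Bag3 (16.5), Hspa1b (48.4), Hdac2 (144.8), Sdhb (198), Ndufv2 (241), Iigp1 (3.98), Psmb8 (2.44), Pvalb (58.4) and Pcolce2 (4.43 CPM), and low for Per1 (70.3), Kdm5c (32.4) and Anks1 (28.8 CPM). Its summed level was high for heat shock and protein folding genes (10500 CPM), oxidative phosphorylation subunits (9701), interferon-responsive genes (361) and leptomeningeal fibroblast markers (99.4 CPM), and low for glutamate receptors and scaffolds (6320) and chromatin regulators (2238 CPM). It had 20500 genes detected, where the other CC libraries had 21779 to 22200.

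Of the other flagged values, 3 were in the CS library BLA-151: Hr was high at 27.0 CPM (others 10.8 to 13.9), Anks1 was high at 56.8 CPM (others 43.1 to 46.4) and Grm8 was low at 17.5 CPM (others 27.5 to 29.9). In CC library BLA-145 Prkcd was high at 85.3 CPM, Nr4a3 at 141.4 CPM and the summed perineuronal net and matrix genes at 4050 CPM. Bdnf was low in the CC library BLA-031 (17.5 CPM), Crhr1 was high in the CS library BLA-091 (35.6 CPM), and the CS library BLA-014 had the fewest genes detected of its group (21228).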

How the results depend on the processing

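No gene was called in CC against CS under any of the 20 alternatives. The count at an unadjusted p under 0.05, 746 in the main analysis, was 1315 with limma sample quality weights (smallest adjusted p 0.126), 304 with only the CC and CS libraries in the model (16014 genes tested), and between 375 (without the CS library BLA-151) and 1222 (without the CS library BLA-091) when 1 library was left out. For the interaction DESeq2 called 1 gene; the unadjusted count of 578 was 1099 with no filter on low counts, 389 to 1150 when 1 library was left out (1150 without the CC library BLA-115), and 1059 with limma and 1175 with DESeq2 (0 called) without that library, the last pair being chosen after seeing the data. For the regional difference the count of 959 was 850 with no replicate block for the mouse, 1376 with sample quality weights and the block (smallest adjusted p 0.238), 405 without the CC library BLA-115 and 1464 with no filter on low counts (34229 genes), and 0 genes were called in each; the block changed no call. The cause of these differences was not tested.

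Of 82 genes examined 10 had a sign change. With quality weights Crh was -0.36, Hbb-bs -0.37, Hbb-bt -0.34, Hba-a1 -0.20, Ttr -0.27 and Gm11410 0.13, and with limma voom Gm11410 was 0.0706. Without the CC library BLA-115 and with limma voom, Per1 was 0.00035, Crh -0.0558, Gm11410 0.0126 and Ttr -0.10. With 1 library left out, Fkbp5 ran from -0.0987 to 0.0252, Gm11410 from -0.392 to 0.0497, Pvalb from -1.48 to 0.11 and Slc17a7 from -0.0042 to 0.32. Immediate early genes had a median between 0.09 and 0.22 and oligodendrocyte markers between -0.56 and -0.20 under all alternatives. Heat shock genes ranged from -0.25 to 0.06. With 6 and 5 libraries, the intervals of single genes bound only their own difference.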
